A study of Mus musculus with 4 samples.

Results

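The liver of aging diabetic mice was set against the liver of naturally aging mice. The comparison rests on 2 of the 4 arrays of the series, 1 array for each group, chosen by the mouse group named in the labels. Both groups were male, both gave whole liver, and both were killed after a fast of 12 h. The natural aging group had no drug treatment, and the aging diabetic group was sampled after the diabetes had been modelled and before any drug. The remaining arrays held aging diabetic mice given metformin, or metformin with astragalus polysaccharide (the combination array), and their values are given beside a few genes only. The series title calls the diabetes type 2. Strain, age, the agent or diet that made the mice diabetic, and the number of mice behind each RNA are not given in the sources used here, and the sample titles carry 60 d without saying what it counts. With 1 array in each group there is no replicate and no test, so higher and lower below mean a difference between these arrays of 2-fold or more.

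The liver stores and releases glucose, burns and builds fat, makes bile acids and sets plasma iron through the hormone hepcidin. In rodents many of its enzymes also differ between the sexes, because males release growth hormone in pulses and females more steadily, and hepatocytes read that pattern through the growth hormone receptor, the kinase Jak2 and the transcription factor Stat5b. Insulin and growth hormone signalling are both known to be disturbed in rodent diabetes, and aging liver is known for DNA damage responses that act through p53.

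Levels are given as scaled signal, the processed spot intensity with the 75th percentile of each array set to 100. They compare the same probe between arrays and not different genes with each other. The RNA came from whole liver, in which fewer cells of a type and less RNA per cell cannot be told apart. A difference is in log2 units, aging diabetic minus natural aging, and the ± beside it is the measurement error that the image analysis gives for both spots, with a median of 0.17. That error holds no spread between animals. On the natural aging array 56.8% of spots were well above background, against 58.8% on the aging diabetic array, and none was saturated. Both lay on the same slide and were read in the same scan, per the file headers.

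Of 23458 genes matched to a probe, 15051 were well above background on at least 1 of the 2 arrays and were compared. In the aging diabetic liver 1220 of them were higher, which is 8.11%, and 914 were lower, which is 6.07%. These shares, 14.2% in either direction, are the background against which each gene group below is read. For 13460 genes both arrays were well above background. In the others 1 array was not: for 1483 of them the fold is a lower bound, written as at least N-fold, and for 108 no fold could be given, so they count as compared and hold no call. The median difference of all compared genes was -0.04. When genes were split into 4 equal classes by brightness, the brightest class had a median of -0.17, which became 0.04 after quantile normalization of both arrays, and the medians of lists of bright genes carry that shift. Calls were also most frequent among dim genes, at 13% higher and 10.4% lower in the dimmest class against 0.531% and 1.62% in the brightest. Called genes had 549 further probes, of which 86.9% had the same sign and 47.7% were past 2-fold the same way.

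**Figure D1:**
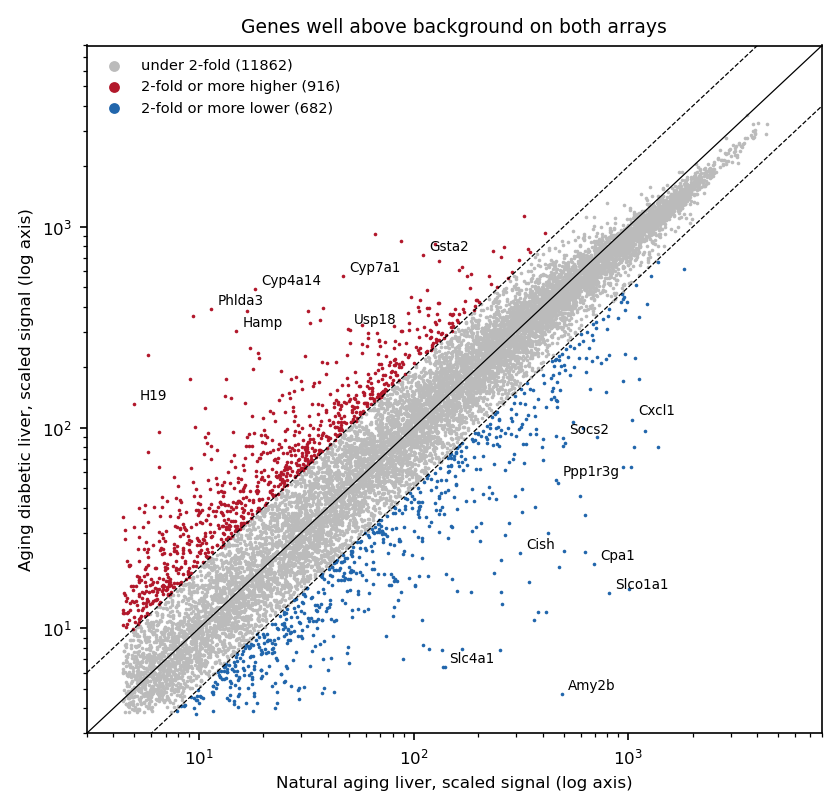
Scaled signal on the natural aging array (x axis, log) against the aging diabetic array (y axis, log) for the genes well above background on both; the solid line marks equal signal and the dashed lines 2-fold. The 916 genes in red were higher and the 682 in blue lower, and the pancreatic amylase Amy2b, the pseudogene Serpina4-ps1 and the transporter Slco1a1 lie farthest below the line.

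Beyond the genes of known pathways, the largest differences among genes measured on both arrays included several loci of unknown function. The predicted gene Gm38832 stood at 5.82 on the natural aging array and 229 on the aging diabetic array, 39.4-fold higher (5.30, and 4.45 after normexp background correction). The RIKEN locus 1810053B23Rik went from 16.8 to 381 and Gm33272 from 17.4 to 249, and their other probes differed by 4.73 and by 4.19 and 4.25. Thus 1810053B23Rik and Gm33272 were high on more than 1 probe, while Gm38832 has no further probe. On the lower side, the pseudogene Serpina4-ps1 went from 1011 to 15.7, 64.6-fold lower. B4galnt1, which makes gangliosides, went from 416 to 12.0 and stood at 351 on the combination array. Its other probes, at -1.98 and -1.40, were lower too. The brush border cadherin gene Cdhr2, an intestinal marker, went from 9.10 to 176, while 7 of 15 usable intestinal markers were not well above background on either array. The only other intestinal marker past 2-fold, Tff3, was lower, from 645 to 299 (-1.11, and -0.98 in the authors' series values). The median of the compared intestinal markers was 0.14.

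The largest bounds were Myom3, an M-band protein of muscle, at 4.30 (not well above background) and 293 and thus at least 67.0-fold higher, Wdr86 at 4.33 and 257, and 5033406O09Rik at 3.42 and 156. Downward they were Tob2, an antiproliferative protein, the steroid dehydrogenase Hsd3b5 and the secreted ribonuclease Rnase1, which pancreas makes in quantity. Rnase1 stood at 111 and at 0.749, not well above background, and was at least 30.0-fold lower. Tob2 stood at 663 on the natural aging array and at 0.829 on the aging diabetic array, but at 584 and 692 on the metformin and combination arrays, and it has no second probe. After normexp correction the bounds of Myom3, Wdr86, 5033406O09Rik and Tob2 moved from 6.07, 5.88, 5.16 and -7.48 to 5.11, 4.90, 4.21 and -6.85.

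**Figure D2:**
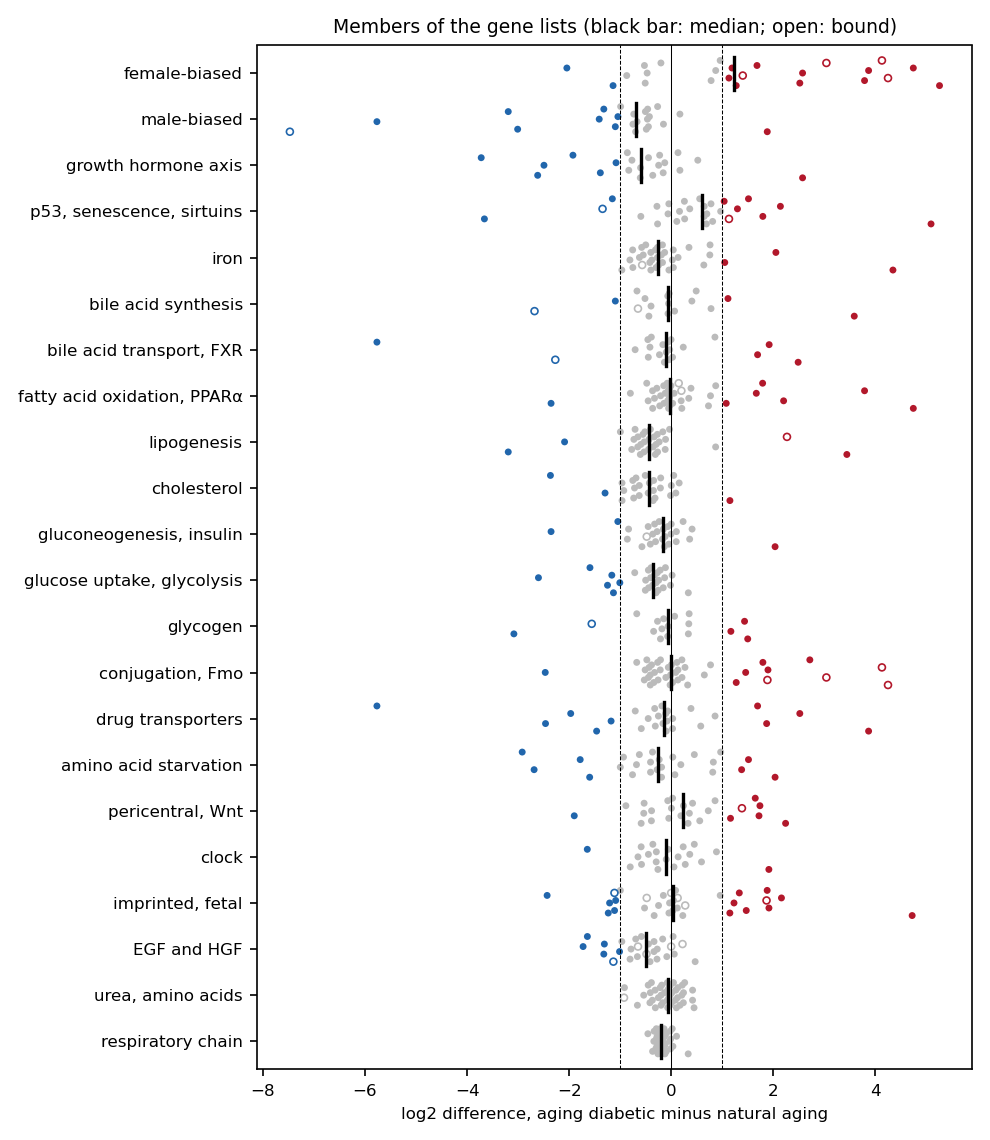
Difference of each compared member (x axis, log2, aging diabetic minus natural aging) in 22 gene lists; red and blue points are past 2-fold (dashed lines), open points are bounds and black bars are medians. The female-biased list has its median at 1.23 and the male-biased list at -0.70, while no member of the urea and amino acid list or of the respiratory chain list is past 2-fold.

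In the growth hormone list the lower genes were feedback inhibitors and secreted products, while the receptor and its transducers differed by less than 2-fold. Of 21 members compared, 6 were lower (28.6%) and 1 was higher (4.76%), with a median of -0.60. The receptor Ghr stood at 1371 on the natural aging array and 804 on the aging diabetic array (-0.77 ± 0.16). Jak2 differed by -0.83, Stat5a by -0.23 and Stat5b by -0.16.

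Feedback inhibitors that Stat5 induces were far lower. Cish, which blocks Stat5 docking at the receptor, stood at 314 on the natural aging array and 23.8 on the aging diabetic array, 13.2-fold lower (-3.72 ± 0.17), and at 63.7 and 101 on the metformin array and the combination array. Socs2, the main brake on growth hormone signalling in liver, went from 498 to 88.4 (5.63-fold lower). Socs3, which cytokines of the interleukin-6 family also induce, went from 499 to 81.3 (6.13-fold lower) and Socs1 from 18.1 to 4.77 (3.80-fold lower). All of these suppressors were lower on the aging diabetic array, each on a single probe.

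Among the secreted products, Igfals, the acid-labile subunit that holds insulin-like growth factor in the circulation, went from 219.8 to 84.0 (2.62-fold lower). Its partner Igfbp3 went from 199 to 94.3 (-1.08, and -0.99 after normexp background correction). Igf1 itself differed by -0.36 ± 0.16, from 1602 to 1248. Cux2, a transcription factor of female liver that growth hormone represses in males, went the other way, from 6.74 to 40.2 (5.96-fold higher).

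The promoters of Cish, Socs3 and Igfals are shown because they are the called members of the list whose promoter held the palindrome TTCNNNGAA, the core to which STAT factors bind, which reads the same on both strands. The sequences are from RefSeq (GRCm38.p6), 5′ to 3′ on the gene's strand, with each match in capitals. They cover 250 bases before the annotated start and, for Cish, the first 20 transcribed bases. The windows lie at chr9:107296409-107296678 on the plus strand, chr11:117969367-117969616 on the minus strand and chr17:24877594-24877843 on the plus strand.
Cish: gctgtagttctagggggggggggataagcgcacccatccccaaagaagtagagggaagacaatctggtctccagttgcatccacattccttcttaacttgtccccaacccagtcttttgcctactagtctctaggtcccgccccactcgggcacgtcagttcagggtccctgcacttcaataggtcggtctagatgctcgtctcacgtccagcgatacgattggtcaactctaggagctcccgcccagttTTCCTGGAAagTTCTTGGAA
Socs3: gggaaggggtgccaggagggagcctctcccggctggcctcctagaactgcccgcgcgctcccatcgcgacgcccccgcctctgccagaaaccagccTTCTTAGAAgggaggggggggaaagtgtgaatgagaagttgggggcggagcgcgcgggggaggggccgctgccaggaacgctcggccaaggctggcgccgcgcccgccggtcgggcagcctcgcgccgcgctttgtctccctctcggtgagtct
Igfals: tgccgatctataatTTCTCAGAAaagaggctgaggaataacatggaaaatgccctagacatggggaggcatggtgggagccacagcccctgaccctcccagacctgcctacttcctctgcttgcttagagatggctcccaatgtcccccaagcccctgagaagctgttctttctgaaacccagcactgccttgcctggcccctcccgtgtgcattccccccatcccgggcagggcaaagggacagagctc
The 2 Cish matches start 0 and 11 bases after the annotated start, the Socs3 match starts 154 bases before it and the Igfals match 236 bases before it. A second annotated start of Igfals has a further match 58 bases before it. Over windows from 250 bases before to 50 after the start, 6 of the 20 members with a promoter in the table held a match. Among them were Bcl6, Prlr and Esr1, whose levels differed by 0.17, -0.13 and -0.60. The other probes of Prlr differed by 0.001 and 0.91 and those of Esr1 by -2.31 and -0.76. Among all 27025 genes with a promoter in RefSeq, 9.55% held it in at least 1 promoter, as did 8.33% of the 32544 promoters. Socs2 had no match in this window. A match is a run of letters and not a measured binding site.

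**Figure D3:**
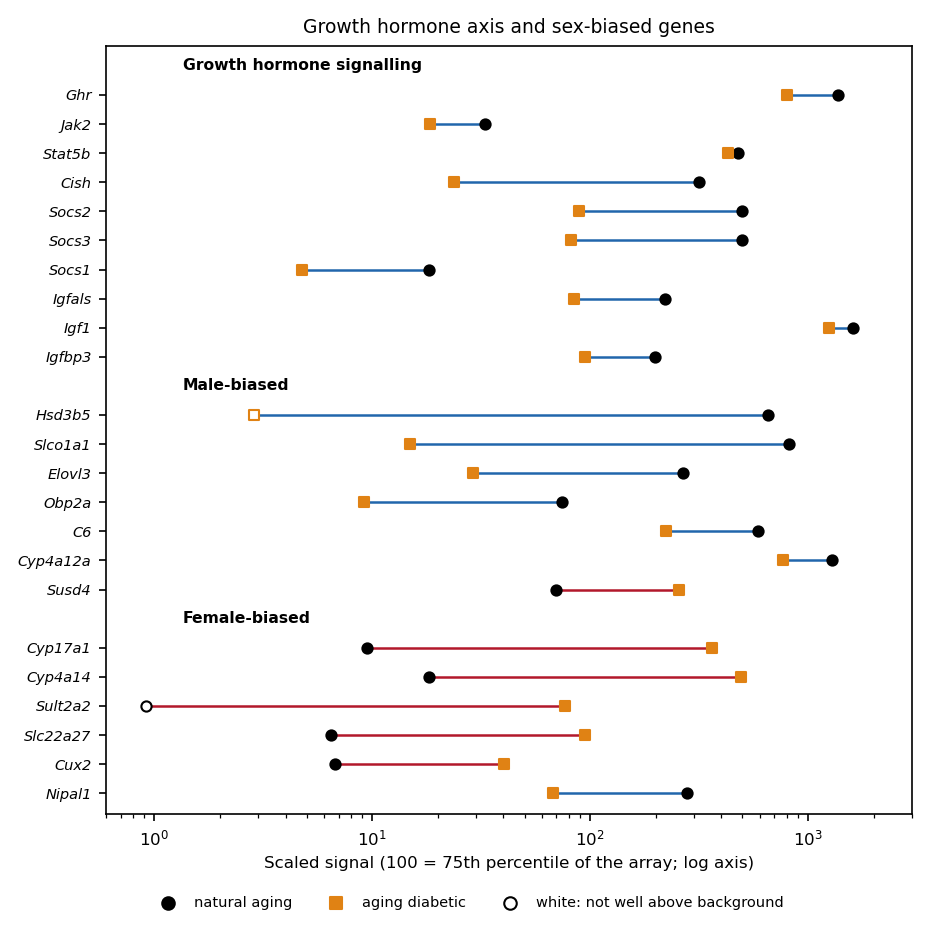
Scaled signal (x axis, log, 100 at each array's 75th percentile) on the natural aging array (circles) and the aging diabetic array (squares) for growth hormone, male-biased and female-biased genes; blue lines fall and red lines rise towards the aging diabetic array, and white symbols are not well above background. Cish goes from 314 to 23.8 and Socs2 from 498 to 88.4 while Stat5b stays within 2-fold.

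Genes with a sex-biased level in mouse liver were split by direction. Among 24 female-biased genes compared, 14 were higher (58.3%) and 2 lower, with a median of 1.23 (1.05 over members measured on both arrays). Among 23 male-biased genes, 8 were lower (34.8%) and 1 higher, with a median of -0.70. Both lists had been described on these arrays before, so the counts are no independent support for their directions. Cyp17a1, a steroid hydroxylase, stood at 9.42 on the natural aging array and 361 on the aging diabetic array. The transporter Slc22a27 went from 6.49 to 94.8, a difference of 3.87 that was 3.76 on its other probe and 3.12 after normexp correction. The sulfotransferase Sult2a2 went from 0.915, not well above background, to 76.5. Nipal1, a magnesium transporter of the female-biased list, ran against it at 277 to 67.2.

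Male-biased Hsd3b5, a steroid dehydrogenase, stood at 658 in natural aging liver and at 2.87, not well above background, in aging diabetic liver, at least 178-fold lower (difference -7.47, and -6.60 after normexp correction). The anion transporter Slco1a1 went from 815 to 15.0 (-5.77, with -4.88 on its other probe). Elovl3, which elongates saturated fatty acids, went from 266 to 29.0 and Obp2a, an odorant-binding lipocalin, from 74.1 to 9.21 (-3.01, and -2.42 after normexp correction). The complement component C6 went from 591 to 222. Cyp4a12a, a male-biased fatty acid hydroxylase, differed by -0.75 and the urinary protein genes Mup1 and Mup3 by -0.47 and -0.15. Mup genes are near-identical copies whose probes can share signal. Susd4, a complement regulator, was the single male-biased gene that was higher, from 69.4 to 256 and 1.12 on its other probe.

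The labels give both groups as male, and the Y-linked genes bear on that. Eif2s3y stood at 338 on the natural aging array and 239 on the aging diabetic array and Uty at 5.87 and 6.97, both well above background on both arrays. Kdm5d, also Y-linked, was not well above background on either, at 1.96 and 1.01. Xist, the RNA of the inactive X chromosome, was not well above background on either array, at 3.49 and 1.61. Ddx3y had no usable spot.

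Iron genes were led by hepcidin. Hamp, the hormone that closes iron export from gut and macrophages, stood at 14.9 on the natural aging array and 303 on the aging diabetic array, 20.4-fold higher (4.35 ± 0.19), and at 783 and 1076 on the metformin and combination arrays. Hamp2, its close paralogue, went from 20.3 to 84.1 (4.15-fold higher), and the copies are alike enough that their probes may share signal. Hjv, the co-receptor through which bone morphogenetic proteins induce hepcidin, went from 56.3 to 117 (1.05, and 0.94 after normexp correction). No iron gene was lower, and 3 of 34 higher is 8.82%, near the 8.11% of all genes. The ligand Bmp6 differed by 0.02. The targets of the same signal stood apart from each other, with Id1 at 0.76, Smad6 at 0.64 and Smad7 at -0.24. Tmprss6, the protease that removes Hjv, differed by -0.31, the iron exporter Slc40a1 by 0.04 and the transferrin receptor Tfrc by -0.75 (-1.54 with outlier spots kept).

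In the bile acid synthesis list Cyp7a1 had the largest difference. Cyp7a1, the rate-limiting enzyme of the classical pathway, stood at 47.1 on the natural aging array and 566 on the aging diabetic array, 12.0-fold higher (3.59 ± 0.17). Cyp39a1, which acts on a side-chain oxysterol, went from 348 to 753 (2.16-fold higher). Cyp7b1, of the alternative pathway, went from 1090.2 to 511 (-1.09, and -0.89 after quantile normalization). Ch25h, a cholesterol hydroxylase that macrophages express, went from 23.7 to 1.79, the latter not well above background (at least 6.40-fold lower). Cyp8b1, which sets the share of cholic acid, differed by 0.78, and Cyp27a1, the entry enzyme of the alternative pathway, by -0.07. Of 17 members 2 were higher and 2 lower, 11.8% each way.

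Of the bile acid transporters, Abcc4 was the highest by fold. Abcc4, which pumps bile acids back to blood, went from 19.8 to 111 (5.61-fold higher). Slc51b, a subunit of the basolateral exporter, went from 14.0 to 52.9 (3.79-fold higher), and its partner Slc51a from 17.9 to 0.966, not well above background (at least 4.82-fold lower). The uptake carrier Slco1a4 went from 94.9 to 307. The canalicular pump Abcb11 differed by -0.16, the uptake carriers Slc10a1 and Slco1b2 by -0.39 and -0.10 and the bile acid receptor Nr1h4 by -0.13. Its target Nr0b2, which represses Cyp7a1, stood at 292 and 291. Of 21 members 3 were higher and 2 lower, Slco1a1 among the latter.

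**Figure D4:**
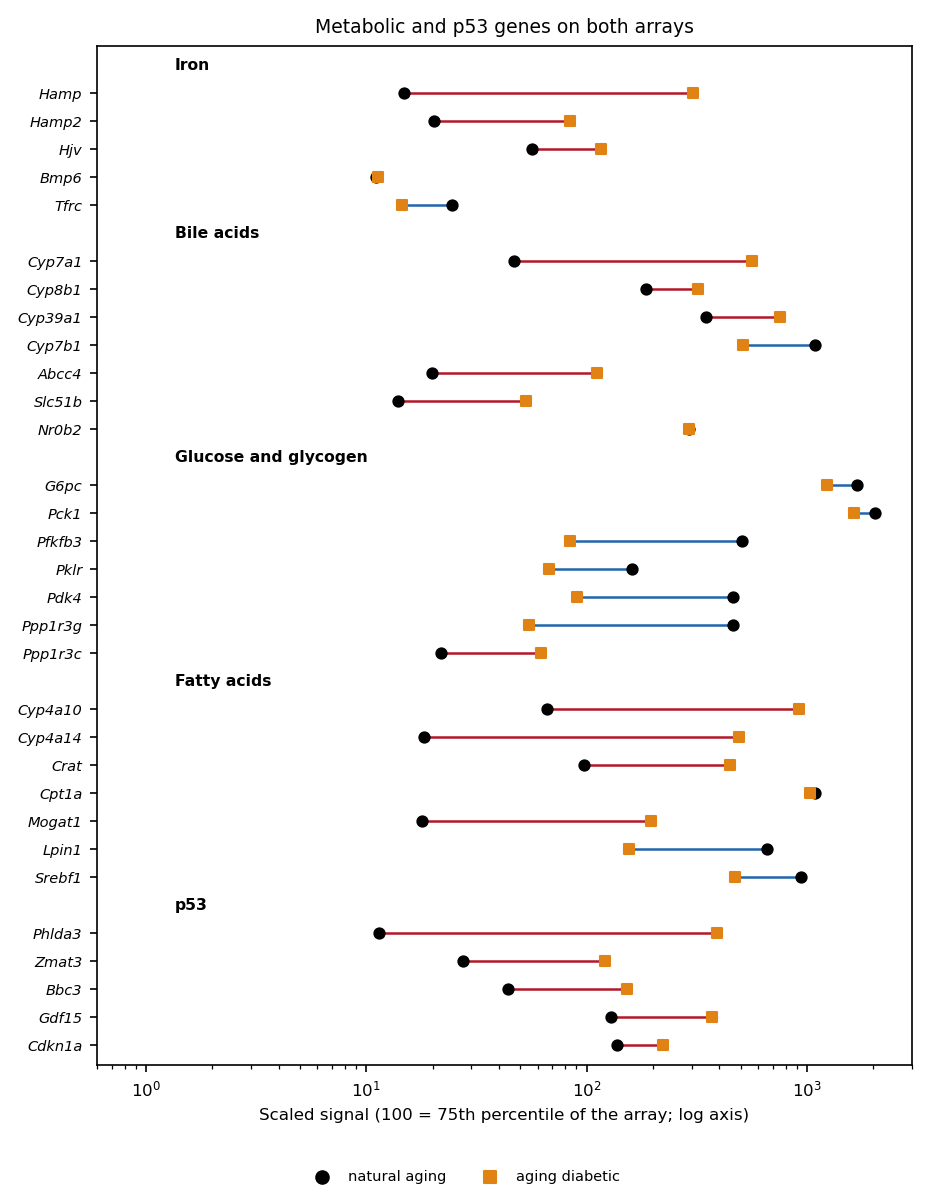
Scaled signal (x axis, log, 100 at each array's 75th percentile) on the natural aging array (circles) and the aging diabetic array (squares) for iron, bile acid, glucose, fatty acid and p53 genes; red lines rise and blue lines fall towards the aging diabetic array. Hamp, Cyp7a1, Cyp4a14 and Phlda3 lie far apart between the arrays, while Bmp6, Nr0b2 and Cpt1a nearly coincide.

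Among fatty acid oxidation genes the higher ones were led by the omega-hydroxylases of the Cyp4a cluster. Cyp4a14 stood at 18.3 on the natural aging array and 490.3 on the aging diabetic array, 26.8-fold higher, and Cyp4a10 went from 66.4 to 919, with 4.29 on its other probe. Cyp4a31, another member of this near-identical cluster, went from 328 to 1136 (1.79) and differed by 4.89 on its other probe. These copies can share signal and were not told apart. Crat, which moves acetyl groups onto carnitine, went from 97.0 to 447 (0.75 on its other probe), and Cpt1b, the muscle form of carnitine palmitoyltransferase, from 7.67 to 24.4. The peroxisomal thioesterase Acot4 went from 32.2 to 68.1.

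The gatekeeper of mitochondrial oxidation and the receptor of the pathway differed less. Cpt1a, the liver form of carnitine palmitoyltransferase, stood at 1085 on the natural aging array and 1028 on the aging diabetic array, and the receptor Ppara differed by -0.06. Pdk4, a fasting-induced kinase that shuts pyruvate oxidation and a PPAR-alpha target, went the other way, from 463 to 90.7 (5.11-fold lower). Of 39 members 6 were higher (15.4%) and 1 lower (2.56%), with a median of -0.03 that became 0.27 after quantile normalization. The direct repeat that PPAR-alpha binds, AGGTCA followed by any base and AGGTCA again, was searched on both strands. None of the 34 members with a promoter in the RefSeq table held it in this window, and 0.0481% of all genes in the table did.

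Lipid synthesis genes had a median of -0.43, with 28 of 31 below 0 but only 2 lower by 2-fold and 2 higher. The acyltransferase Mogat1 went from 17.9 to 195 (10.9-fold higher, 2.60 on its other probe) and its relative Mogat2 from 3.39, not well above background, to 21.1 (2.27 as a bound, and 1.57 after normexp correction). Lpin1, a phosphatidate phosphatase, went from 662 to 156 (-2.09), against -0.92 on its other probe and -1.42 with outlier spots kept. Srebf1, the regulator of the pathway, went from 941 to 472, just short of the threshold. Among lipid droplet and lipolysis genes, G0s2, an inhibitor of adipose triglyceride lipase, went from 104 to 310.0 and the fatty acid binding protein Fabp5 from 1121 to 355. The carboxylesterase Ces1f went from 601 to 294 (-1.03, and -0.94 after quantile normalization). Of 26 members 1 was higher and 2 lower.

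Cholesterol genes showed 2 lower and 1 higher of 26, with a median of -0.44. Mvd, of the mevalonate pathway, went from 34.5 to 76.6. The regulator Srebf2 differed by 0.05. Of 24 apolipoprotein genes the sorting receptor Sort1 was the single lower one, at -1.01, with -0.41 and 0.04 on its other probes and -0.46 over the mean of its probes.

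Glucose uptake and glycolysis genes were lower in 6 of 27 (22.2%) and higher in 0, with a median of -0.36. Pfkfb3, which makes the allosteric activator of phosphofructokinase, went from 509 to 83.9 (6.07-fold lower), and Pklr, the liver pyruvate kinase, from 161 to 67.7 (2.37-fold lower). Hexokinase 2 (Hk2) went from 13.5 to 4.49. Hk3, a hexokinase of myeloid cells, differed by -1.13 and Pfkfb1, the liver form of the bifunctional enzyme, by -1.01, and both fell short of 2-fold after normexp correction (-0.97 and -0.87). The glucose transporter Slc2a2 differed by -0.13.

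The genes of glucose output showed little. G6pc, which releases free glucose, stood at 1691 on the natural aging array and 1237 on the aging diabetic array (-0.45 ± 0.16) and Pck1, the entry enzyme of gluconeogenesis, at 2033 and 1645 (-0.31 ± 0.16). Irs2, the insulin receptor substrate that fasting raises, went from 443 to 215 (-1.04, and -0.97 after quantile normalization). Insr differed by 0.23, Irs1 by 0.41 and Foxo1 by -0.23. Trib3, a pseudokinase that binds Akt, went from 57.6 to 237 (4.10-fold higher). In that list 1 of 27 members was higher and 2 were lower, shares under those of all genes for the higher side and near them for the lower side.

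Several glycogen genes encode subunits that bring protein phosphatase 1 to glycogen. Ppp1r3b, known as the liver form, differed by -0.21, from 1472 to 1273. Ppp1r3g, which feeding and fasting control, stood at 462 on the natural aging array and 54.5 on the aging diabetic array, 8.47-fold lower (-3.08 ± 0.16), at 44.7 on the metformin array and at 436 on the combination array. Ppp1r3c went the other way, from 21.9 to 62.0 (2.83-fold higher), and Ppp1r3d from 11.2 to 3.80, not well above background (-1.56, and -0.96 after normexp correction). The ubiquitin ligase Nhlrc1 went from 14.9 to 40.3 and the muscle glycogen synthase Gys1 from 21.5 to 48.3 (1.17, and 0.997 after normexp correction). Of 17 members 3 were higher and 2 lower, and 3 of 20 usable members were not well above background on either array.

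The leptin receptor gene Lepr, mutated in a common mouse model of diabetes, stood at 70.7 on the natural aging array and 207 on the aging diabetic array (1.55, with 2.32 on its other probe), at 10.1 on the metformin array and at 87.7 on the combination array. Its RNA was thus detected in aging diabetic liver. A probe says nothing about a mutation outside its own sequence.

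The mixed list of p53, senescence and sirtuin genes had the most positive median after the female-biased genes among the 39 pathway lists. Of 28 members of the p53, senescence and sirtuin list, 7 were higher (25%) and 3 lower, with a median of 0.60. Phlda3, a p53 target that restrains Akt, stood at 11.4 on the natural aging array and 389 on the aging diabetic array, 34.1-fold higher (5.09 ± 0.20), and at 386 and 197 on the treated arrays. Zmat3, an RNA-binding p53 target, went from 27.5 to 121, the death inducer Bbc3 from 44.1 to 153 and the stress hormone Gdf15 from 129 to 369. These were each 2-fold or more higher, on single probes.

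Better known members fell short of 2-fold on the probe used. Cdkn1a, the p21 cell cycle inhibitor, stood at 137 on the natural aging array and 222 on the aging diabetic array (0.70 ± 0.16, with 1.25 on its other probe), Trp53 differed by 0.65 and Bax by 0.26. Mdm2, the ligase that degrades p53, differed by 0.65, but by 3.03 on its other probe and 1.84 over the mean of both. Nampt, which makes the NAD precursor used by sirtuins, went from 804 to 362 (-1.15, and -0.98 in the authors' series values), and the telomerase RNA Terc from 9.41 to 0.893, not well above background. No sirtuin was past 2-fold, with Sirt1 at -0.59 and Sirt3 at -0.27.

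In the antioxidant list 3 of 29 members were higher and 1 lower. The quinone reductase Nqo1, a textbook NRF2 target, went from 25.1 to 86.4 (3.44-fold higher) and the carbonyl reductase Cbr3 from 24.6 to 74.9. The regulator itself, Nfe2l2, went from 50.5 to 265 on the probe used, but differed by 0.13 with outlier spots kept. Extracellular superoxide dismutase, Sod3, went from 226 to 104.

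Conjugation enzymes and flavin monooxygenases were higher in 9 of 41 (22%) and lower in 1 (2.44%). Besides Sult2a2, the glutathione transferase Gsta2 went from 110.3 to 726 (6.58-fold higher) and the arylamine acetyltransferase Nat1 from 10.2 to 37.9. Sult2a4, a near copy of Sult2a2, went from 0.928, not well above background, to 36.0. Sult5a1 ran the other way, from 243 to 43.9 (-2.22 on its other probe). The median of the group was 0.00, and 31 members were within 2-fold.

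Among cytochromes of families 1 to 3, Cyp2d22 had the largest difference, from 259 to 13.3, and stood at 388 on the combination array. Cyp2b13 and Cyp2b10, targets of the receptor CAR, went from 178 to 571 and from 408 to 932, and these copies can share signal. Cyp2r1, a vitamin D hydroxylase, went from 199 to 83.8. Cyp2j5, which epoxidises arachidonic acid, differed by -1.19, but by -0.35 with outlier spots kept, and Cyp2c55 by -1.29 with -0.11 on its other probe. Of 35 members 2 were higher and 4 lower.

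Drug transporters moved both ways, with 4 of 26 higher (15.4%) and 5 lower (19.2%). The female-biased carriers Slc22a27 and Slc22a26 were higher, the latter from 9.35 to 53.7, as was Slc22a29 from 18.7 to 68.3. Slc22a7, which carries organic anions into hepatocytes, went from 944 to 171 (5.51-fold lower). Abca8a, a lipid exporter, went from 323 to 82.5 (-0.76 on its other probe).

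Genes of the response to amino acid shortage did not move together. The transcription factor Atf4 differed by 0.03. Asparagine synthetase, Asns, went from 205 to 27.1 (7.57-fold lower, -4.07 on its other probe), the glutathione-degrading enzyme Chac1 from 319 to 49.5 (6.44-fold lower) and Psph, the last step of serine synthesis, from 333 to 110.1. Aldh1l2, a mitochondrial folate enzyme, went from 20.6 to 5.98 (-1.78, and -1.16 after normexp correction). All are textbook Atf4 targets and were lower, yet Trib3 and Gdf15, which Atf4 also induces, were higher. Of 26 members 3 were higher and 4 lower.

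In the endoplasmic reticulum and heat shock list, Derl3, which helps export misfolded proteins, went from 36.6 to 343 (9.35-fold higher) and stood at 16.5 and 5.66 on the treated arrays. Creb3l2, a membrane-bound transcription factor, went from 89.7 to 23.6. The stress sensor Ern1 and the collagen chaperone Serpinh1 differed by -1.07 and -1.07, and by -0.87 and -0.96 after normexp correction. The other 38 of 42 members were under 2-fold.

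Wnt signalling sets the pericentral zone of the liver lobule. Of 25 pericentral and Wnt genes 6 were higher (24%) and 1 lower, and the higher ones included feedback regulators of the pathway. Rnf43, a ligase that removes Wnt receptors, went from 19.4 to 91.7 (4.73-fold higher) and the transcription factor Tbx3 from 118 to 396 (1.89 on its other probe). Sp5, a direct Wnt target, went from 4.93 to 16.3 (1.72, and 0.998 after normexp correction). Axin2, the classical target, went from 1.51, not well above background, to 11.4 (at least 2.62-fold higher). Lhpp, a phosphohistidine phosphatase of the pericentral zone, went from 185 to 579.9 (1.67 on its other probe), and the ligand Wnt9b, which the endothelium of the central vein makes, from 7.24 to 16.2.

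The metabolic markers of the same zone differed less. Glutamine synthetase, Glul, differed by -0.39, Cyp2e1 by -0.38 and Cyp1a2 by -0.89. The Wnt target receptors and inhibitors Lgr5, Notum and Nkd1 differed by 0.03, 0.01 and -0.05. The single lower member, Znrf3, a relative of Rnf43, differed by -1.90 on the probe used, but by 0.37 with outlier spots kept, so its direction is not settled. Of 18 periportal genes, the ethanolamine phosphate lyase Etnppl was the single one past 2-fold, from 235 to 760.3.

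EGF and HGF signalling genes were lower in 6 of 27 (22.2%) and higher in 0. Egfr, the EGF receptor, went from 963 to 386 (-1.32, with -3.45 and -1.92 on its other probes). Hgf, the mitogen of stellate cells for hepatocytes, went from 24.7 to 9.95 (-1.18 on its other probe) and Myc from 81.3 to 26.1 (-1.21 on its other probe). The feedback inhibitor Spry4 went from 15.3 to 4.62, and Spry1 differed by -1.01 (-0.81 after normexp correction). Hgf moved beside stellate and matrix markers, whose values follow, and their part in it was not tested.

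Imprinted and fetal genes were spread widely, with 9 of 32 higher (28.1%), 6 lower (18.8%) and a median near 0, at 0.04. H19, the maternally expressed RNA, stood at 4.96 on the natural aging array and 131 on the aging diabetic array (4.72, and 3.92 after normexp correction), and its paternally expressed neighbour Igf2 went from 1.59, not well above background, to 16.0 (at least 3.65-fold higher). Meg3, the maternal RNA of another imprinted region, went from 37.8 to 7.02 (-2.43), against -0.71 and -0.69 on its other probes. Dlk1 of that region went from 3.63, not well above background, to 5.29. Alpha-fetoprotein, Afp, went from 15.2 to 55.9, the steroid reductase Akr1c18 from 8.0 to 35.8 and the surface protein Ly6d from 162 to 613.

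The circadian clock list had 1 of 21 higher and 1 lower, shares below those of all genes. Arntl (Bmal1), the activator of the clock, went from 8.53 to 32.2 (1.92), but its other probe differed by 0.38. Nfil3, which represses clock output, went from 435 to 139, with -1.63 on its other probe. Nr1d1 differed by 0.14, Dbp by -0.26, Per1 by -0.45 and Per2 by -0.65. CACGTG, the E-box that Arntl and Clock bind, was found in 5 of 19 members with a promoter in the table (Tef, Cry1, Ciart, Per1 and Bhlhe41) against 8.09% of all genes in the table and 7.17% of all promoters. Their levels differed by -0.29 for Tef, -0.29 for Cry1, -0.36 for Ciart and -0.45 for Per1, and Bhlhe41 was not well above background on either array. The time of day of the tissue collection is not given in the sources used here.

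Immediate-early genes, which respond to signals within minutes, were lower in 13 of 29 (44.8%) and higher in 2 (6.9%). Egr1 went from 185 to 15.1 (12.3-fold lower), its relative Egr2 from 27.5 to 3.27 (at least 7.41-fold lower, the latter not well above background), Atf3 from 81.2 to 17.3 and Maff from 236 to 65.6. Ccn1, a matricellular protein, went the other way, from 5.71 to 23.9 (2.07, and 1.36 after normexp correction).

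Cytokine and Toll-like receptor genes were lower in 8 of 40 and higher in 2, while 11 were not well above background on either array. The neutrophil attractant Cxcl1 went from 1043 to 109.6 (9.52-fold lower), the monocyte attractant Ccl2 from 55.2 to 14.9, the T cell attractant Ccl19 from 51.7 to 12.3 and interleukin-1 alpha, Il1a, from 17.8 to 3.88. Ccl3, a macrophage chemokine, was higher, from 5.82 to 22.6. Il1a and Ccl3 differed by -2.20 and 1.96, and by -1.53 and 1.37 after normexp correction. 
Secreted plasma proteins lay mostly a little below 0. Of 37 complement and acute phase genes 3 were lower and 0 higher, with a median of -0.45. The lower ones were C6, the interleukin-1 receptor Il1r1, from 614 to 99.98 (6.14-fold lower), and the endotoxin co-receptor Cd14, from 249.8 to 109 (-1.29 on its other probe). The central complement component C3 differed by -0.42. Of 35 protease inhibitor and clotting genes 4 were lower and 1 was higher. Serpina7, which carries thyroid hormone in plasma, was the higher one, from 265 to 792, and stood at 310.3 and 84.3 on the metformin and combination arrays. Serpina3f went from 749.9 to 210.2 (-2.75 on its other probe), clotting factor F8 from 57.6 to 18.4, and Serpina12, the adipokine vaspin, from 16.3 to 1.85, not well above background. Among 23 hepatokines, Inhbc, an inhibin subunit made by hepatocytes, went from 399.7 to 183. Inhba, its relative, went from 71.3 to 146 (1.03, and 0.91 after normexp correction).

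Of 37 interferon-induced and antigen presentation genes 5 were higher (13.5%) and 3 lower (8.11%), with a median of 0.06 (-0.02 with outlier spots kept). Usp18, which trims the ubiquitin-like protein Isg15, went from 49.3 to 311 (6.31-fold higher), the oligoadenylate synthetase relative Oasl1 from 60.6 to 161 (1.40 on its other probe) and Ifi44l from 6.64 to 25.3 (1.93, and 1.198 after normexp correction). The class II genes H2-Aa and H2-Eb1 went from 250.1 to 80.7 and from 220.3 to 87.6, and H2-DMb1, which loads peptide on class II, from 106 to 40.5. Isg15 differed by 0.69 and the class II chain Cd74 by -0.87. Beside them, resident macrophage markers summed to 9937 on the natural aging array and 7219.6 on the aging diabetic array, and markers of T, NK and B cells to 659 and 345. Their part in the class II values was not tested. The macrophage median was -0.58 and became -0.37 after quantile normalization, while that of the lymphocyte markers was -1.11 and became -1.17.

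Cell cycle genes were lower in 11 of 37 (29.7%) and higher in 0. Mki67, a protein of dividing cells, went from 84.6 to 13.9 (6.10-fold lower), the repressor E2f8 from 141 to 18.7 and the replication helicase subunit Mcm5 from 25.1 to 5.49. Mcm6 went from 117 to 7.91, but its other probe differed by -0.35, and Top2a was at least 5.31-fold lower with -0.59 on its other probe. Cyclin E2, Ccne2, went from 13.7 to 1.56, not well above background.

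Hepatocyte markers were bright on both arrays, with 17 of 17 well above background on each, none past 2-fold and a median of -0.39. Albumin, Alb, stood at 1871 on the natural aging array and 1725 on the aging diabetic array. Their summed scaled signal was 34254 in natural aging and 26572 in aging diabetic liver. This list belongs to the bright genes whose common shift was given above.

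**Figure D5:**
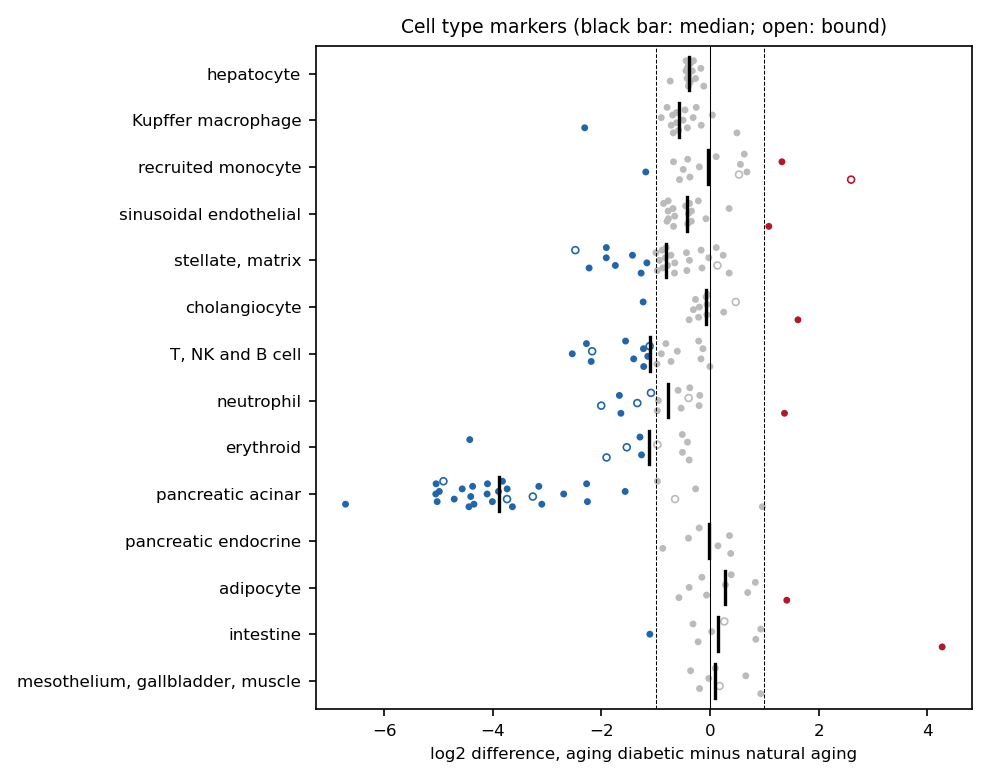
Difference of each compared marker (x axis, log2, aging diabetic minus natural aging) in 14 cell type lists; blue and red points are past 2-fold (dashed lines), open points are bounds and black bars are medians. The 31 pancreatic acinar markers lie far to the left of all other lists with a median of -3.90, while the hepatocyte markers lie close together at -0.39.

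Markers of lymphocytes were lower in 10 of 19 (52.6%), with none higher and a median of -1.11, and 4 of 23 usable markers were not well above background on either array. The granzyme Gzma went from 41.1 to 7.08, the NK cell granule protein Nkg7 from 42.0 to 9.21 and the antibody joining chain, Jchain, from 83.4 to 17.2. Neutrophil markers were lower in 5 of 14, with S100a9 from 453 to 142 and Retnlg from 195 to 62.4, and the elastase Elane was higher (1.37, and 0.72 after normexp correction). Kupffer cell markers had 1 of 17 lower, the folate receptor Folr2 from 398 to 80.4. Of recruited monocyte markers, Trem2, a receptor of lipid-laden macrophages, went from 22.9 to 57.2 and the chemokine receptor Ccr2 from 30.6 to 13.4. Itgax was at least 6.04-fold higher on the probe used and differed by -1.18 on the other, so it has no settled direction.

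Stellate cell and matrix markers were lower in 8 of 29 (27.6%) and none was higher. Their summed scaled signal was 7149 in natural aging and 4093 in aging diabetic liver. Pdgfrb, the receptor of pericytes and stellate cells, went from 76.7 to 16.4 (4.68-fold lower), collagen Col3a1 from 348 to 92.4 and the stellate cell protein Reln from 186 to 49.6. Postn, a matricellular protein, went from 72.3 to 26.8, with -1.42 and -1.27 on its other probes. Sinusoidal endothelial markers had 1 of 18 higher and 0 lower, but their median was -0.43, and -0.41 after quantile normalization. The higher one, Gata4, differed by 1.08, but by 0.21 on its other probe and 0.89 after normexp correction. Cholangiocyte markers had 1 higher and 1 lower of 13.

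Red cell genes were lower in 5 of 10 (50%), with none above 0 and summed scaled signals of 5323 and 3626. The anion exchanger of the red cell membrane, Slc4a1, went from 137 to 6.40 (-4.42, and -3.84 after normexp correction) and Alas2, the first enzyme of red cell heme synthesis, from 448 to 183. The globin genes Hba-a1 and Hbb-bt differed by -0.42 and -0.51. Their part in the iron genes above was not tested.

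Genes of the exocrine pancreas were the group with the lowest median of all 53 lists. Of 31 acinar markers compared 27 were lower (87.1%), and their summed scaled signal was 15952 in natural aging and 2371 in aging diabetic liver. Amylase Amy2b went from 491 to 4.69, the carboxypeptidases Cpa1 and Cpb1 from 693 to 21.0 and 382 to 12.0, and the lipase Cel from 366 to 11.05. Amy2b and Cel differed by -6.71 and -5.05, and by -5.76 and -4.40 after normexp correction. The elastase Cela3a went from 628 to 24.003 and the zymogen granule protein Zg16 from 477 to 20.2. On the metformin array Amy2b, Cpa1, Cpb1, Cel, Cela3a and Zg16 stood at 9.20, 83.9, 48.6, 28.1, 142 and 71.1, each above its value on the aging diabetic array. On the combination array these stood at 0.722, 2.93, 2.69, 1.603, 4.44 and 9.43, and all but the last pair were not well above background. Amylases, elastases and trypsins are families of near copies whose probes may share signal. Spink1, a trypsin inhibitor that liver also makes, differed by 0.96, and the elastase Cela1 by -0.97.

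The few endocrine pancreas markers that could be compared showed no such difference. Of 19 usable markers 13 were not well above background on either array, among them glucagon (Gcg), somatostatin (Sst) and the islet factor Pdx1. The insulin genes Ins1 and Ins2 stood at 8.18 and 26.7 in natural aging liver and at 10.5 and 14.6 in aging diabetic liver, differences of 0.36 and -0.87. None of the 6 compared was past 2-fold, and 1 of them, Ttr, at 2106 and 1598, is also in the hepatocyte list. Of 9 adipocyte markers compared, the receptor Adrb3 was the single one past 2-fold, from 106 to 283, and none of the 7 compared markers of mesothelium, gallbladder and muscle was. The 43 compared respiratory chain subunits and the 44 compared genes of the urea cycle and amino acid breakdown held no gene past 2-fold, with medians of -0.19 and -0.06 that became 0.12 and 0.18 after quantile normalization.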

How the data were processed

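RNA of whole liver from 4 mouse groups was hybridised to Agilent arrays in a single colour (Cy5), 1 array for each group. Spot intensity values were made with Agilent Feature Extraction, which subtracted background within each array, in version 10.7 per the labels and 11.5.1.1 per the file headers. The authors also deposited a log2 value table of the series, whose normalization between arrays is not given in the sources used here. It served as an alternative.

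For each array the log2 processed signal was reduced by the 75th percentile over non-control spots (2699.5 for natural aging, 3068 for aging diabetic). Spots flagged as non-uniform or population outliers were dropped (1963 and 2765), and repeated spots of a probe were averaged. Probes well above background on at least 1 of the 2 arrays were kept. Of 56605 probes 33762 matched 23458 RefSeq genes (GRCm38.p6) by accession, and the brightest probe stood for a gene. Where 1 array was not well above background, the other was set against the dim spot's own signal or the lowest well-above-background signal of its array (4.37 and 3.70 scaled), whichever was larger, which gives a bound.

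With 1 array in each group no test was possible, and a call is a difference of 2-fold or more. The precision is limited by that number of arrays. The comparison and calls were run on a simulated second array, made from the scaled natural aging values with planted differences. Spot error was its only noise, so it does not test the scaling, the outlier filter or the spread between animals. Python 3.11.15 (numpy 2.4.6, pandas 2.3.3, matplotlib 3.10.9) and R 4.3.3 with limma 3.58.1 were used, the latter for normexp background correction with an offset of 50.

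Named were the 10 largest measured differences each way, the 3 largest bounds each way, up to 6 members of each list by size of difference, and a fixed set of genes such as Hamp, Cyp7a1 and Lepr. The 53 lists hold 1358 genes, of which 1136 were compared, and 3 listed names matched no gene. The members and lists were chosen with earlier results of these data known. Further pathway genes given by their difference alone, such as Stat5b, Mdm2 and Cpt1a, were chosen after their values were seen. The alternatives were other scalings, the authors' values, normexp correction, the outlier and background filters, the probe chosen for a gene and a threshold on the measurement error. A few genes within this rule are left out of the text.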

Additional observations from a re-analysis of the deposited data

How the results depend on the processing

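All 1220 higher and 914 lower calls rest on 1 array for each group, so no setting speaks to the spread between mice. Without the filter on dim probes the counts became 2159 and 1393. Under the other alternatives they ranged from 916 to 1281 higher and from 682 to 1024 lower. Normexp correction, run on the median signal and added after the files were seen, shared 73% of the higher and 76.5% of the lower calls. The medians of 17 of the 53 lists turned sign after quantile normalization. Of these, medians at least 0.2 below 0 became positive for lipid droplet (0.0655), apolipoprotein (0.0313), cytochrome (0.0183), antioxidant (0.11), hepatokine (0.0379) and periportal genes (0.0409). Smaller ones that turned were fatty acid oxidation (-0.03 to 0.27), bile acid synthesis (-0.06 to 0.23), bile acid transport (-0.10 to 0.10), gluconeogenesis (-0.17 to 0.0217), glycogen (-0.07 to 0.11), clock (-0.10 to 0.0238), urea and amino acid (-0.06 to 0.18), endoplasmic reticulum (-0.198 to 0.00501), respiratory chain (-0.19 to 0.12), recruited monocyte (-0.0437 to 0.12) and endocrine pancreas genes (-0.0286 to 0.0679). In the authors' values 15 lists turned, and the medians at least 0.2 below 0 among them were those of lipid droplet (0.0534), apolipoprotein (0.0177), antioxidant (0.0964), hepatokine (0.0293) and periportal genes (0.0298). Each other alternative run on the lists turned between 1 and 4 lists. The small adipose list turned to -0.000183 with outlier spots kept, and the adipocyte markers to -0.0668 without the dim filter. Znrf3 turned to 0.37 with outlier spots kept, and Itgax to -1.18 with the probe brightest over 4 arrays. The cause was not tested. No paired analysis was possible because each group has 1 array. Signal over background limits the dimmest genes, where calls were most frequent.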
